A study of Homo sapiens and Mus musculus with 18 samples.

Results

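The 10 genes described here encode the transcription factors of the naive pluripotency network, KLF2, KLF4, KLF5, KLF17, TFCP2L1, ESRRB, TBX3, PRDM14, NR5A2 and ZFP42, together with the mouse genes of the same names. They were taken by name, with earlier results of these data already known. All 10 were found among the 44910 genes of the human count table and all 10 among the 29720 genes of the mouse table. Bulk mRNA was sequenced in 18 samples of 9 groups with 2 replicates each. The human groups were H9 embryonic stem cells (ESCs) reset chemically to the naive state, grown in PXGL medium on irradiated mouse feeder cells and then taken through feeder-free passages, primed H9 ESCs in StemFlex medium, primed ESCs of RUES2-GLR, a RUES2 derivative with germ-layer reporters, and RA-gastruloids (aggregates of RUES2-GLR cells treated with the WNT activator CHIR99021 and retinoic acid) at 24 h (early) and 120 h (late). The mouse groups, all of the line E14Tg2a, were naive ESCs in 2iLif (inhibitors of MEK and GSK3 with LIF), epiblast-like cells (EpiLCs) made with activin A and bFGF, and early and late gastruloids. The mouse gastruloids were aggregates treated with CHIR99021 before the early sampling, and no retinoic acid is described for them. They were sampled at other times after induction than the human ones. The mouse gastruloids were started from naive ESCs and not from EpiLCs, the human ones from primed ESCs. Each species is represented by very few lines, so that species, line, medium and time differ together. PXGL medium holds LIF with inhibitors, among them of MEK. Within each species naive and primed cells also differed in medium, so state and medium cannot be told apart. The reporter alleles are shared by all RUES2-GLR groups, and the replicates of a stage are biological replicates that shared a batch. The gastruloid samples are described as collected in 1 batch, and whether the stem cell groups belonged to it is not given in the sources used here, so that for those groups stage and batch cannot be told apart.

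Naive pluripotency is the state of the preimplantation epiblast, and it is held by a set of transcription factors that is largely dismantled when cells pass to the formative and primed states. In mouse cells LIF acts through STAT3 on Klf4 and Tfcp2l1, GSK3 inhibition releases Esrrb from repression by TCF7L1, and MEK inhibition keeps the ERK pathway, which drives exit from the state, low. KLF17 is known as a factor of the human but not the mouse naive state, and ESRRB as one of the mouse network that human naive cells use little.

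In H9, naive and primed samples matched their labels by markers outside the set. The 4 naive markers SUSD2, DPPA3, DPPA5 and KHDC3L summed to 4454 to 4762 CPM (counts scaled to library size with TMM) in naive H9 ESCs and to 8.53 to 9.505 in primed H9 ESCs. In mouse the list separated the groups less, with sums of 1622 to 1667 CPM in naive ESCs and 685 to 706 CPM in EpiLCs. Library totals ranged from 3681739 to 38771193 counts in human and from 6487157 to 20052505 in mouse, and the smallest was replicate 2 of primed RUES2-GLR. Markers of other cells moved with some groups. The 8 fibroblast markers were all at or above 1 CPM in naive H9 ESCs, with a sum of 796 to 809 CPM against 507 to 532 in primed H9 ESCs, where DCN and LUM were at 0. The sum was higher, at 1579 to 1835 CPM, in primed RUES2-GLR ESCs, where DCN and LUM were also at 0. In early RA-gastruloids it was 1641 to 1696 CPM. The 8 trophectoderm markers summed to 408 to 478 CPM in naive against 65.4 to 70.4 in primed H9 ESCs. All 7 primitive endoderm markers were at or above 1 CPM in naive H9 ESCs, and 5 of them were called lower in primed H9 ESCs, with GATA6 going from 39 to 0 CPM, although the sum of the list was 130 to 145 CPM in naive and 155 to 156 CPM in primed cells. The germ cell markers found summed to 353 to 385 CPM in naive and 43.1 to 44.6 CPM in primed H9 ESCs. NANOS3, DDX4 and DAZL were under 1 CPM in naive H9 ESCs, DAZL at 0. Of the 5 germ cell markers tested, 3 were called lower in primed H9 ESCs and 2 higher. The part of these other cells in the results on naive cells was not tested. In bulk samples fewer expressing cells and less RNA per cell cannot be told apart.

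The human genes lie, in GRCh38 coordinates of the count table, at chr1:44118821-44135140 (KLF17, plus strand), chr1:200027614-200177420 (NR5A2, plus), chr2:121216587-121285202 (TFCP2L1, minus), chr4:187995771-188005046 (ZFP42, plus), chr8:70051651-70071693 (PRDM14, minus), chr9:107484852-107490482 (KLF4, minus), chr12:114670255-114684175 (TBX3, minus), chr13:73054976-73077541 (KLF5, plus), chr14:76310712-76501837 (ESRRB, plus) and chr19:16324826-16328685 (KLF2, plus). All counts are of exons. Counting did not use strand, and a gene on the other strand overlaps KLF17, NR5A2, KLF4, TBX3 and ESRRB in human and Nr5a2, Tfcp2l1, Tbx3, Klf2 and Esrrb in mouse, so reads of the overlapping exons cannot be assigned to either. KLF17, KLF4 and KLF2 and mouse Zfp42 have annotated pseudogenes, and reads that mapped to several places were left out of the counts.

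The 250 bases upstream of a transcription start are shown for KLF17, detected mainly in human naive cells, ESRRB, high in mouse cells only, and TFCP2L1, a LIF-responsive factor of both, with matches to any of 4 letter strings searched on both strands in capitals. The strings were GGGNGTG, as bound by KLF factors, AAGGTCA, the half-site of orphan nuclear receptors such as ESRRB and NR5A2, TTCNNNGAA, as bound by STAT factors, and GGTGTGA, as bound by T-box factors. 

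ESRRB (human, chr14:76375887-76376136, plus strand, RefSeq GRCh38.p14, the third of its annotated starts): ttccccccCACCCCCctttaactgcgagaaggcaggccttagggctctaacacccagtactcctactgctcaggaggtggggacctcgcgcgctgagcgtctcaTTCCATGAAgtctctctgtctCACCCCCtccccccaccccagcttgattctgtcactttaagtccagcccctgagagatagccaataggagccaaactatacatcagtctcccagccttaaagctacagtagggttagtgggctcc

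Esrrb (mouse, chr12:86407637-86407886, plus strand, GRCm39): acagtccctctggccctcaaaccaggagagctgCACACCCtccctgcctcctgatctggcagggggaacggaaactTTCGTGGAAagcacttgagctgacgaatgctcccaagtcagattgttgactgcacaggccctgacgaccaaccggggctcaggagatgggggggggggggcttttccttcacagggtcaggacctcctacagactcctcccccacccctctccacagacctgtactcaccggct

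TFCP2L1 (human, chr2:121285203-121285452, minus strand, RefSeq GRCh38.p14): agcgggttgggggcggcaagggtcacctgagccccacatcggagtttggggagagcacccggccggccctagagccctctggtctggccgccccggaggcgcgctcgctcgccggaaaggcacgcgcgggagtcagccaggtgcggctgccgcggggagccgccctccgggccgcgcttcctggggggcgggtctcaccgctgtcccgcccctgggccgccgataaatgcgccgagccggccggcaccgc

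Tfcp2l1 (mouse, chr1:118555386-118555635, plus strand, GRCm39): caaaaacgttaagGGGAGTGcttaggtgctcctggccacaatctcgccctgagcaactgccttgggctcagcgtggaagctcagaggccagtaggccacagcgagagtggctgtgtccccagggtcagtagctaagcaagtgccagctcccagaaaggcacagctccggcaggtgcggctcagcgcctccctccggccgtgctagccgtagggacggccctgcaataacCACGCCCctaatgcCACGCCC

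KLF17 (human, chr1:44118571-44118820, plus strand, RefSeq GRCh38.p14): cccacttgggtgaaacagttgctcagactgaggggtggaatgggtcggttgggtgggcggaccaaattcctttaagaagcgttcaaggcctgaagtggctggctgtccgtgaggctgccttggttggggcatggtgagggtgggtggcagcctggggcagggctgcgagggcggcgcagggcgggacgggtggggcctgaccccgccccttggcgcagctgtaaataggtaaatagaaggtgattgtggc

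Klf17 (mouse, chr4:117622846-117623095, minus strand, GRCm39): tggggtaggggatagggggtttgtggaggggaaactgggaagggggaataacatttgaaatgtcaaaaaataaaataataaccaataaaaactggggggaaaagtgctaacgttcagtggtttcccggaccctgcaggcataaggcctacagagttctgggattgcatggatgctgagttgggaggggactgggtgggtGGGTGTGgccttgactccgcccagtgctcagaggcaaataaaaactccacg

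Both ESRRB windows shown held KLF and STAT letters, and the windows at the other two human ESRRB starts held none of the 4 strings. The first base of the STAT letters lay 146 bases before the human start and 174 bases before the mouse start. Mouse Tfcp2l1 held 3 KLF matches and mouse Klf17 held 1, and the human windows of these 2 genes held no match. Over all 35114 human windows of this length 27.1% held the KLF letters, 3.44% the half-site, 6.57% the STAT letters and 2.76% the T-box letters. Over 21770 mouse windows the shares were 25.7%, 4.35%, 7.82% and 3.34%. RefSeq gave windows for 8 of the human genes, with several starts for ESRRB, KLF5 and NR5A2. Of these 8 genes 3 held KLF letters and 1 held STAT letters at any start. This counts genes, while the human shares above count windows. GENCODE starts gave all 10 mouse windows, of which 4 held KLF letters and 1 held STAT letters. In global alignments human and mouse windows were most alike for NR5A2 (80% of 250 bases identical at its first start) and KLF4 (72.8%), against 54% for TFCP2L1, 54.4% for KLF17 and 49.2% for the ESRRB start shown. The first NR5A2 window overlaps an annotated exon of NR5A2 itself, and the window at its other start had 48.4%. These matches are descriptions of the letters and not binding sites.

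The comparison of naive with primed H9 ESCs asked which factors differ between the human naive and primed states within 1 line. Both states were grown in their own medium, so state and medium cannot be told apart. Of the 10 genes, 9 fell in primed cells (edgeR quasi-likelihood test, Benjamini-Hochberg adjusted p under 0.05 and a log2 fold change beyond 1 in size), none rose, and ESRRB did not pass. Over the 18300 genes tested, 22.3% were called lower and 25.5% higher. The median log2 fold change of the 10 genes was -5.30, against 0.005 over all genes tested. In TPM, which divides by gene length so that levels of different genes can be compared, the 10 genes summed to 1483 TPM in naive and 211 TPM in primed H9 ESCs.

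The KLF genes, zinc-finger activators that overlap in function in mouse ESCs, all fell from naive to primed H9 ESCs. KLF4 was at 316 and 360 CPM in the naive replicates and at 1.61 and 2.43 in the primed ones. KLF5 was at 290 and 307 CPM in naive and at 1.54 and 2.74 in primed cells. The mean CPM of KLF4 was 167-fold and that of KLF5 140-fold higher in naive cells, and no replicates overlapped. The log2 fold changes were -7.27 (SE 0.16, adjusted p = 3.18e-26) for KLF4 and -6.98 (SE 0.17, adjusted p = 1.62e-25) for KLF5. KLF2 was lower in level, at 15.8 and 20.02 CPM in naive and at 0.280 and 0.167 in primed cells, with a log2 fold change of -6.45 (SE 0.33, adjusted p = 1.38e-17). KLF17 had 537 and 460 counts (28.1 and 26.4 CPM) in naive H9 ESCs and 0 in both primed replicates. With a floor of 3 counts per library, averaged over both libraries, KLF17 was at least 194-fold lower in primed than in naive H9 ESCs (adjusted p = 1.35e-19). KLF17 had no count in primed RUES2-GLR and late RA-gastruloids either, and 1 count in all in early RA-gastruloids.

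**Figure D1:**
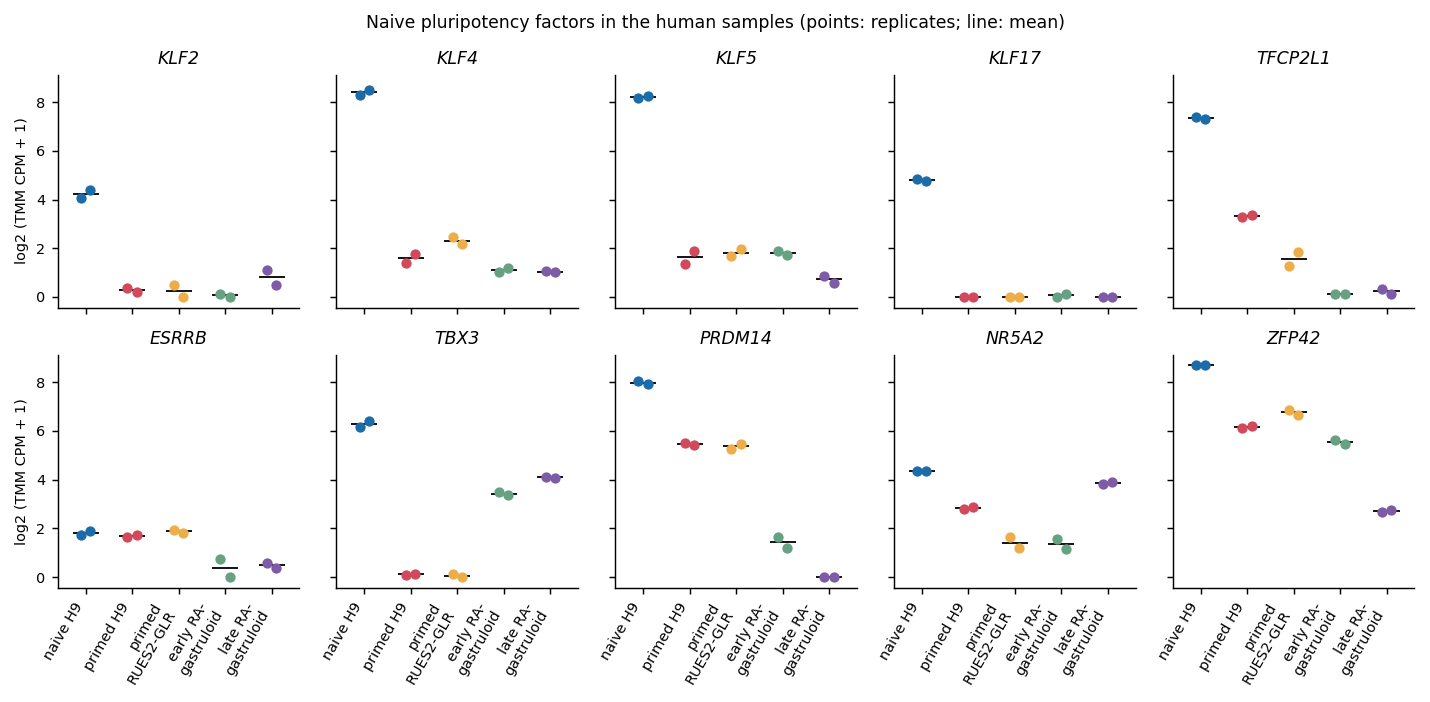
Level of each of the 10 human genes in the 10 human samples, as log2 of TMM-scaled CPM plus 1 on the vertical axis and the 5 groups on the horizontal axis. Points are the 2 replicates and lines their mean. In 9 panels naive H9 ESCs stand above every other group, and the share of all genes with this order was not counted. In the ESRRB panel the naive replicates (2.30 and 2.75 CPM) lie among those of the primed lines.

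Per length, naive H9 ESCs used KLF4 and KLF5 almost equally. KLF4 made up 48.9% ± 1.3 (SD, n = 2) of the summed TPM of the 4 KLF genes, KLF5 43.1% ± 1.2, KLF17 4.59% ± 0.50 and KLF2 3.37% ± 0.34. The sum fell from 578 TPM in naive to 5.29 TPM in primed H9 ESCs. Of the 13 other KLF genes tested, 6 fell and 2 rose. KLF18 fell most among those that passed (14.04 to 0.176 CPM, log2 fold change -6.72), while KLF12 (1.11 to 19.9 CPM, 4.13) and KLF15 (2.33 to 21.4 CPM, 3.20) rose.

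TFCP2L1, a factor of the grainyhead family that relays LIF signals, was at 166 and 157 CPM in naive and 8.67 and 9.41 in primed H9 ESCs. Its log2 fold change was -4.14 (SE 0.13, adjusted p = 2.05e-22), and primed cells had a measurable level. NR5A2, an orphan nuclear receptor that binds the Pou5f1 promoter in mouse, was at 19.3 and 19.7 CPM in naive and 6.01 and 6.36 in primed cells, with a log2 fold change of -1.64 (SE 0.16, adjusted p = 9.62e-11). ESRRB, the other orphan nuclear receptor, was low in all human groups. Its CPM values were 2.30 and 2.75 in naive H9, 2.10 and 2.29 in primed H9 and 2.78 and 2.55 in primed RUES2-GLR ESCs, and the naive replicates overlapped those of RUES2-GLR. The log2 fold change from naive to primed H9 was -0.18 (SE 0.30, adjusted p = 0.589), and 0.30 as a ratio of mean TPM, where the median of all genes was 0.53.

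TBX3, a T-box repressor, went from 70.1 and 84.4 CPM in naive to 0.0699 and 0.0953 CPM in primed H9 ESCs. This was 2812 counts against 5, a log2 fold change of -9.64 (SE 0.26, adjusted p = 1.76e-24). Its paralogue TBX2 fell in the same cells from 12.6 CPM to 0, and ESRRA, a paralogue of ESRRB, from 181 to 42.1 CPM (-2.10). PRDM14, a PR-domain protein that represses FGF signalling and DNA methyltransferases together with CBFA2T2, was at 263 and 239 CPM in naive and 44.7 and 42.3 in primed cells. Its fall of 2.53 on the log2 scale (SE 0.12, adjusted p = 4.49e-18) left the primed level far above the floor. ZFP42 (REX1), a zinc-finger protein related to YY1, had the highest TPM of the set in naive H9 ESCs (478) and in primed H9 ESCs (116). It fell from 414 and 411 CPM to 69.1 and 72.3 (log2 fold change -2.54, SE 0.11, adjusted p = 2.58e-19).

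The general pluripotency factors had no common direction. Of POU5F1, SOX2, NANOG and SALL4, 1 rose and 1 fell from naive to primed H9 ESCs. SOX2 went from 126 to 346 CPM (log2 fold change 1.46), NANOG from 76.9 to 18.3 CPM (-2.06), and POU5F1 was at 844 and 714 CPM without passing the test. Among 11 formative and primed genes tested, 10 rose, with a median log2 fold change of 4.90, led by THY1 (10.58), SFRP2 (8.96) and SOX11 (6.57). Of 10 genes of ERK feedback, such as phosphatases and Sprouty proteins that ERK signalling induces, 9 rose and none fell, with a median of 4.01. DUSP6 rose from 1.46 to 239 CPM (7.33), SPRY4 from 2.89 to 233 CPM (6.34) and ETV5 from 1.85 to 64.5 CPM (5.11). In the LIF-STAT3 list 3 of 11 fell and 1 rose. The shared receptor subunit IL6ST fell from 115 to 7.38 CPM (-3.91), GBX2 from 10.8 to 1.77 (-2.57) and LIF from 17.9 to 4.42 (-2.05). In the WNT-TCF arm 3 of 10 rose and 2 fell, with TCF7L1, the repressor of the network, up from 20.4 to 267 CPM (3.71), TCF7L2 up (1.36) and TCF7 down (-1.46). Of 6 cofactors of PRDM14 and ESRRB, CBFA2T2 (-3.05) and NCOA3 (-2.68) fell. Naive H9 ESCs were grown with a MEK inhibitor and LIF, and the part of the medium in these changes was not tested.

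The 2 primed lines were compared because gastruloids were made from RUES2-GLR only. RUES2-GLR had less TFCP2L1 and NR5A2 than H9, and the other 8 genes were not called. Of all genes tested 12.2% were called lower and 17.1% higher. TFCP2L1 was at 1.39 and 2.55 CPM in RUES2-GLR, a log2 fold change of -2.46 (SE 0.25, adjusted p = 8.71e-10). NR5A2 was at 2.13 and 1.27 CPM, a log2 fold change of -1.68 (SE 0.27, adjusted p = 3.26e-06). ZFP42, at 116 and 101 CPM, differed by 0.63 (SE 0.11, adjusted p = 1.31e-05) without reaching the fold asked for. KLF4 was at 4.50 and 3.50 CPM, with a log2 fold change of 0.97 (SE 0.25, adjusted p = 0.00116). The KLF4 difference passed under DESeq2 size factors (1.11), upper quartile scaling (1.15), DESeq2 (1.09), the replicate block (1.06) and the fit of the compared groups alone (1.16). Without replicate 2 of primed H9 it was 1.38, without replicate 2 of RUES2-GLR 1.15, and it passed in both cases. Reads of RUES2-GLR were spread differently over genes of different length. A gene of 1 kb had 2.11 to 2.19 TPM per CPM there and 4.35 to 4.39 in primed H9, and the median log2 ratio of TPM over all genes was -1.18 between the lines, against -0.12 for CPM. On TPM the ratio was -0.03 for KLF4 and -0.41 for ZFP42, both above that median. It was -3.23 for TFCP2L1 and -2.88 for NR5A2, both below it. TPM divides both lines by the same gene length, so it moves every ratio of means by the same amount. It therefore does not remove a dependence on length. TFCP2L1 (9367 exonic bases) and NR5A2 (7543) are the longest of the human set. The part of gene length in their calls was not tested. The libraries were sequenced with reads of either of a pair of lengths. Which library had which is not given in the sources used here. The part of read length in the shift between the lines was not tested.

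In the human gastruloid series, 5 of the 10 genes fell between the primed RUES2-GLR cells and the early aggregates, and TBX3 rose. Of all genes tested 17.6% were called lower and 12% higher. PRDM14 fell from 37.3 and 43.0 CPM to 2.11 and 1.31 (log2 fold change -4.51, SE 0.21, adjusted p = 1.06e-17). TFCP2L1 fell from 25 counts in all to 2 (0.0961 and 0.101 CPM, log2 fold change -3.96, SE 0.70, adjusted p = 9.87e-06), and ESRRB from 42 counts to 7 (0.673 and 0 CPM, log2 fold change -2.96, SE 0.59, adjusted p = 6.58e-05). KLF4 fell to 1.06 and 1.31 CPM (-1.84, SE 0.33, adjusted p = 1.51e-05). ZFP42 fell to 48.7 and 43.4 CPM (-1.25, SE 0.12, adjusted p = 1.08e-10) and remained the most abundant of the 10 at 67.7 TPM. As a ratio of mean TPM the change was -0.90 for KLF4 and -0.38 for ZFP42, where the median over all genes was 0.95. The counting interval of the TFCP2L1 ratio was 4.12 to 144. KLF5 (2.21 and 2.87 CPM against 2.69 and 2.32), NR5A2 (2.13 and 1.27 against 1.92 and 1.21) and KLF2 (5 and 0 counts against 1 and 0) overlapped between the groups and were not called.

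TBX3 was at 1 and 0 counts in primed RUES2-GLR ESCs and at 107 and 92 counts (10.3 and 9.29 CPM) in early RA-gastruloids. Counting error alone gave a ratio of 150 with a 95% interval of 26.7 to 5969, and the fitted log2 fold change was 7.07 (SE 0.52, adjusted p = 3.21e-13). Late RA-gastruloids held 16.2 and 15.8 CPM, a further log2 fold change of 0.71 (SE 0.16, adjusted p = 0.000429) that did not reach the fold asked for. The late level was below that of naive H9 ESCs (70.1 and 84.4 CPM) in both replicates. Lists of lineage markers moved in both directions at this step. Of the primitive endoderm markers 5 of 7 were called higher and 0 lower. Of the trophectoderm markers 3 of 7 were called higher, with CDX2 going from 0 to 257 CPM, and 2 lower. The study names CDX2 as a marker of caudal axial stem cells and SOX17 as an endoderm marker. The names of these lists therefore do not identify the cells in gastruloids. Of the endothelial markers 0 of 6 were called higher and 6 lower, of the germ cell markers 1 of 5 higher and 4 lower, and of the gut epithelium markers 2 of 7 higher and 3 lower. Their part in the TBX3 counts was not tested.

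Between early and late RA-gastruloids 3 genes fell and 2 rose, with 13.2% of all genes called lower and 11.8% higher. PRDM14 had 22 and 13 counts early and 0 counts in both late replicates, at least 7.59-fold lower with a floor of 3 counts per library (adjusted p = 3.67e-08). ZFP42 fell to 5.28 and 5.71 CPM (log2 fold change -3.08, SE 0.14, adjusted p = 1.07e-17). KLF5, at 2.69 and 2.32 CPM early, fell to 0.824 and 0.510 CPM (-1.79, SE 0.37, adjusted p = 0.000121). NR5A2 rose from 1.92 and 1.21 CPM to 12.9 and 13.8 (3.07, SE 0.24, adjusted p = 2.90e-12), above primed H9 ESCs and below naive ones. KLF2 had 1 and 0 counts early and 24 and 4 counts late, a log2 fold change of 4.00 (SE 1.03, adjusted p = 0.000935). The pooled KLF2 ratio was 18.7 with a 95% counting interval of 3.09 to 764, and without late replicate 1 the change was 2.86 and did not pass. KLF2 is also an endothelial gene, and 4 of 6 endothelial markers rose at this step. CDH5 went from 0.0961 to 2.64 CPM and the sum of the 7 markers from 28.5 to 29.2 CPM early to 62.0 to 73.4 late. The same sum was higher, at 152 to 155 CPM, in primed RUES2-GLR ESCs, where KLF2 had 5 and 0 counts. The part of endothelial cells in the KLF2 counts was not tested. ESRRB was at 0.673 and 0 CPM early and 0.485 and 0.306 CPM late, overlapping replicates with no call. KLF4 stayed at 1.07 and 1.02 CPM, within the range of the early replicates or just under it, and TFCP2L1 had 5 and 1 late counts. Neither was called.

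**Figure D2:**
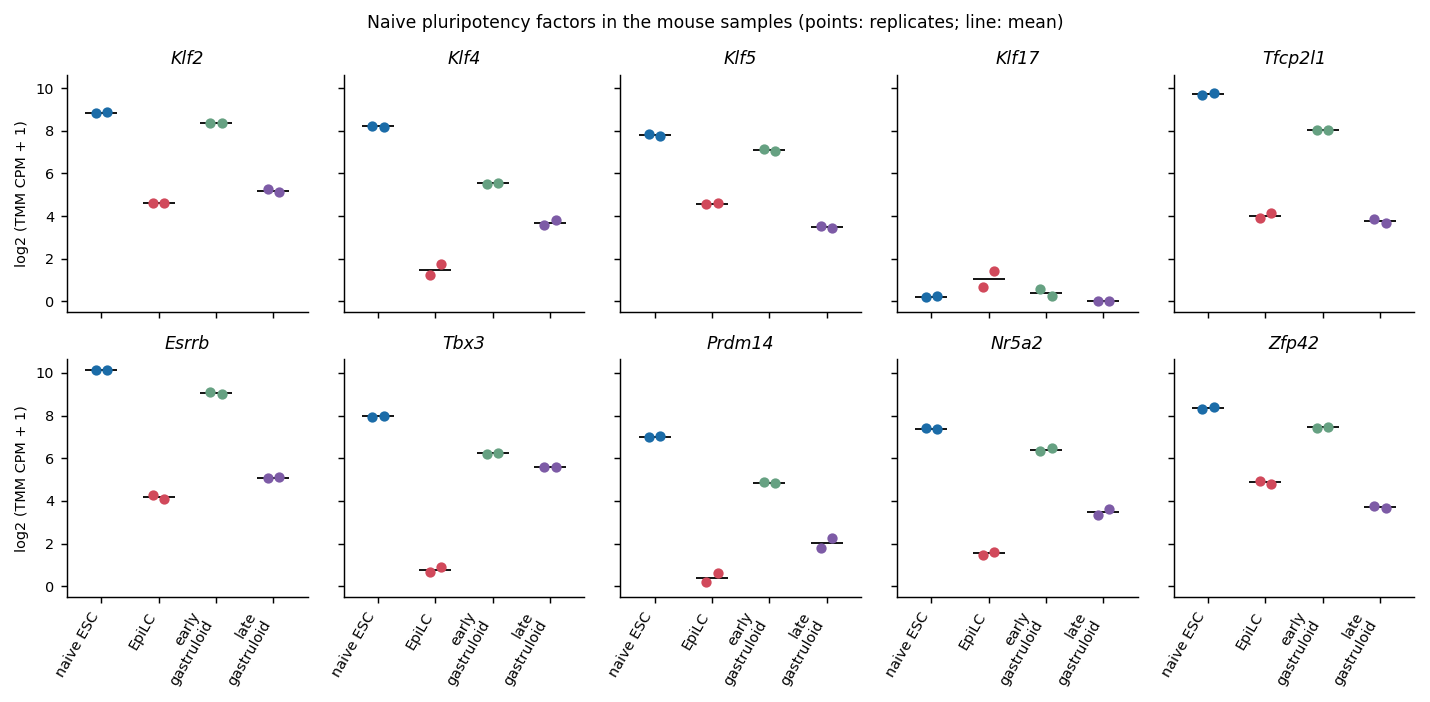
Level of each of the 10 mouse genes in the 8 mouse samples, as log2 of TMM-scaled CPM plus 1 on the vertical axis and the 4 groups on the horizontal axis. Points are the 2 replicates and lines their mean. In 9 panels the order is naive ESCs above early gastruloids above both other groups, and Klf17 stays below 2 CPM throughout. The share of all genes with this order was not counted.

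In mouse cells the factors were lowest in EpiLCs and late gastruloids. The 10 genes summed to 3130.2 TPM in naive ESCs, 136 in EpiLCs, 1619.6 in early and 175 in late gastruloids. From naive ESCs to EpiLCs, the comparison of naive with primed-like cells, all 9 genes tested fell, against 12.1% of all 15003 genes called lower and 17.7% higher. The median log2 fold change was -6.05, against 0.02 over all genes. Klf17 was not tested because it did not pass the filter on low counts.

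Esrrb, at 1109 and 1118 CPM in naive ESCs, fell to 18.2 and 16.1 in EpiLCs (log2 fold change -6.05, SE 0.07, adjusted p = 1.10e-56). Tfcp2l1 fell from 829 and 866 CPM to 14.2 and 16.5 (-5.75, SE 0.07, adjusted p = 1.74e-54). Nr5a2 fell from 169 and 163 CPM to 1.77 and 2.04 (-6.39, SE 0.13, adjusted p = 4.65e-45). EpiLCs were at 1.54% of the naive CPM of Esrrb, 1.81% of Tfcp2l1 and 1.15% of Nr5a2. Tbx3 fell from 245 and 252 CPM to 0.591 and 0.855 (-8.31, SE 0.13, adjusted p = 1.21e-49). Prdm14 fell from 128 and 129 CPM to 0.148 and 0.526, from 2355 counts to 9 (-8.26, SE 0.18, adjusted p = 3.23e-43).

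Among the KLF genes Klf4 fell most, from 300 and 291 CPM to 1.33 and 2.37 (log2 fold change -7.17, SE 0.12, adjusted p = 2.48e-49). Klf2 fell from 449 and 469 CPM to 23.5 and 23.8 (-4.28, SE 0.07, adjusted p = 4.03e-49) and Klf5 from 228 and 214 CPM to 22.5 and 23.4 (-3.26, SE 0.08, adjusted p = 2.98e-41). Zfp42 fell from 318 and 341 CPM to 29.7 and 27.0 (-3.56, SE 0.07, adjusted p = 1.92e-44). Per length the KLF pool was mostly Klf2, at 64.1% ± 1.4 (SD, n = 2) of the summed TPM in naive ESCs, with 25.0% ± 0.8 Klf4, 10.96% ± 0.60 Klf5 and 0.017% Klf17. Klf17 had 1 and 2 counts in naive ESCs, 4 and 26 in EpiLCs, 10 and 2 in early and 0 in both late gastruloids. Its EpiLC replicates were at 0.591 and 1.71 CPM, above the naive ones at 0.140 and 0.179, and the 95% counting interval of the ratio was 2.59 to 42.7.

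**Figure D3:**
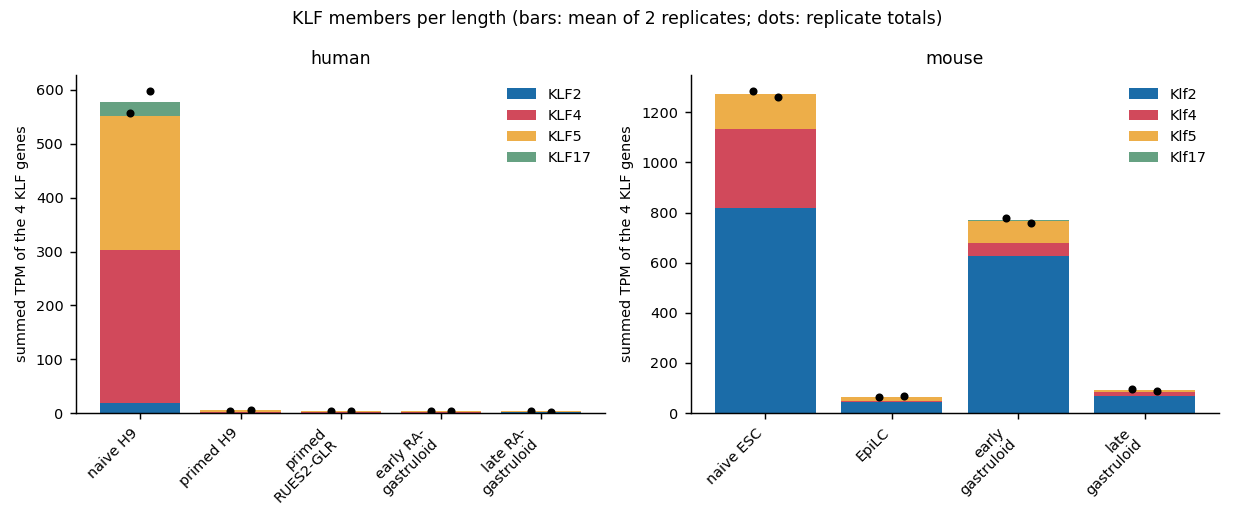
Summed TPM of KLF2, KLF4, KLF5 and KLF17 (vertical axis, linear from 0) in each human group (left) and mouse group (right). Bars stack the means of 2 replicates by gene and dots are the replicate totals. Human naive cells are split between KLF4 (48.9%) and KLF5 (43.1%), mouse naive cells are mostly Klf2 (64.1%), and early mouse gastruloids hold 769 TPM against 4.05 TPM in early RA-gastruloids.

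In the mouse lists the ERK and primed genes were mostly higher in EpiLCs. Of 10 ERK feedback genes 7 rose from naive ESCs to EpiLCs (median 1.74), led by Dusp6 (17.997 to 277 CPM, 3.92), Spry4 (3.16) and Dusp4 (2.93). Of 12 formative and primed genes tested 9 rose (median 3.47), with Fgf5 at 0.229 and 52.7 CPM (7.83), Pou3f1 at 4.21 and 407 CPM (6.53) and Dnmt3a (4.50). In the LIF-STAT3 list 4 of 11 fell and none rose, and the largest changes were in Socs3 (-3.29), a direct target of STAT3, Il6st (-2.99) and Lifr (-2.36). Of 4 core factors 3 fell, Nanog from 915 to 71.6 CPM (-3.66), Sox2 (-2.28) and Sall4 (-1.09). Among the cofactors 4 of 6 fell, with Nr0b1 from 368 to 8.24 CPM (-5.47), Suz12 (-1.13) and Eed (-1.12) named by the size of their change. Of the other KLF genes 2 of 12 fell and 2 rose, including Klf8 (-3.54), Klf7 (3.38) and Klf15 (-2.96). Mouse naive ESCs were grown with inhibitors of MEK and GSK3 and LIF. The part of the medium in these changes was not tested.

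The gastruloids began from naive ESCs, and in early gastruloids each of the 9 genes tested was at a part of its naive level. Whether these levels were retained, or lost and regained before sampling, was not tested. Of 9 genes 5 fell beyond the fold asked for, against 6.81% of all genes called lower and 16.2% higher. These were Klf4 (log2 fold change -2.70), Prdm14 (-2.21), Tbx3 (-1.74), Tfcp2l1 (-1.69) and Esrrb (-1.07), with SEs of 0.05 to 0.08. Nr5a2 (-0.99), Zfp42 (-0.92), Klf5 (-0.70) and Klf2 (-0.47) had adjusted p values under 0.05 but not the fold, and Nr5a2 passed at -1.0007 with DESeq2, at -1.02 without naive replicate 2 and at -1.06 without early replicate 2. Early gastruloids were at 72.2% of the naive CPM of Klf2, 61.6% of Klf5, 53.1% of Zfp42, 50.4% of Nr5a2, 47.6% of Esrrb, 31.0% of Tfcp2l1, 29.9% of Tbx3, 21.6% of Prdm14 and 15.5% of Klf4. In EpiLCs the share of the naive CPM was between 0.262% (Prdm14) and 10.4% (Klf5). The comparisons of EpiLCs and of early gastruloids with naive ESCs share the naive samples.

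Against EpiLCs, which are not their cells of origin, early gastruloids were higher in all 9 genes tested, with 11.7% of all genes called higher and 9.24% lower. Log2 fold changes ran from 2.56 (SE 0.08, Klf5, adjusted p = 1.48e-35) to 6.56 (SE 0.16, Tbx3, adjusted p = 8.12e-41). For these 9 genes no replicate of the EpiLCs reached any of the early gastruloids, and the share of all genes separated in this way was not counted. Early gastruloids also had 9 of 12 formative and primed genes above naive ESCs, at a median of 2.17, and 6 of 10 ERK feedback genes (median 1.19). The naive markers Dppa3, Susd2 and Khdc3 were higher in early gastruloids than in EpiLCs, at 38.9, 9.74 and 1.39 CPM against 7.68, 3.85 and 0.140.

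**Figure D4:**
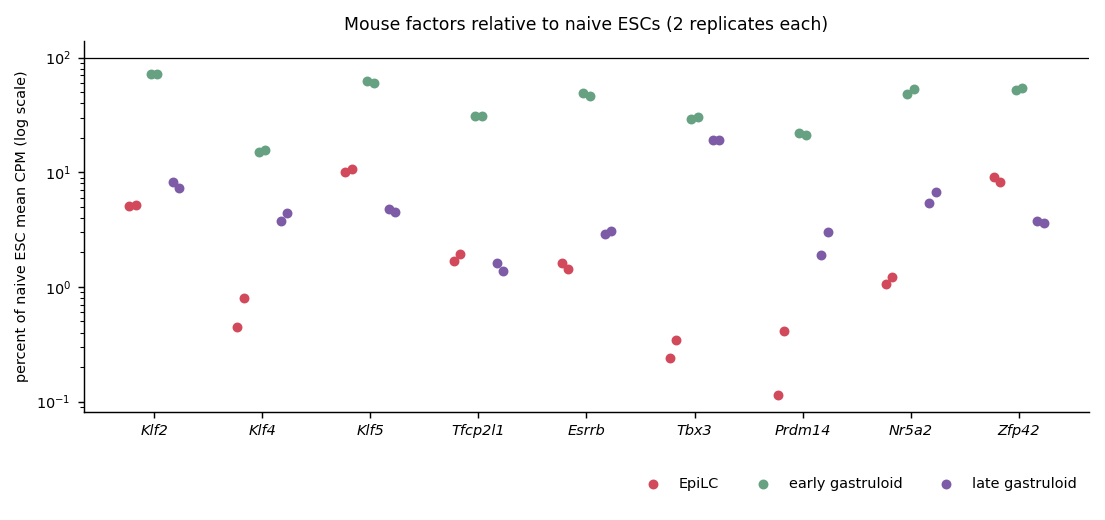
CPM of 9 mouse genes as percent of the mean of naive ESCs (vertical log axis, the line marks 100 percent) in EpiLCs, early and late gastruloids, with both replicates as points. Early gastruloids lie above EpiLCs for every gene, from 15.5% for Klf4 to 72.2% for Klf2, and late gastruloids show their largest share for Tbx3 (19.1%).

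From early to late mouse gastruloids 8 of 9 genes fell, with 19.1% of all genes called lower and 20.1% higher. Tfcp2l1 fell from 261 and 264 CPM to 13.7 and 11.6 (log2 fold change -4.36, SE 0.08, adjusted p = 1.50e-46) and Esrrb from 542 and 517 to 32.2 and 34.1 (-4.00, SE 0.07, adjusted p = 1.76e-49). The log2 fold changes of Zfp42 (-3.84), Klf5 (-3.73), Klf2 (-3.21), Prdm14 (-3.17), Nr5a2 (-3.06) and Klf4 (-1.93) had SEs of 0.07 to 0.17. Tbx3 was at 72.7 and 75.8 CPM early and 47.4 in both late replicates, a change of -0.65 (SE 0.08, adjusted p = 4.74e-11) that did not reach the fold. All 8 fibroblast markers, 6 of 7 primitive endoderm and 5 of 7 trophectoderm markers rose at the same step, and none of these lists had a fall. Of 7 endothelial markers 5 rose and 1 fell. Of 8 gut epithelium markers 4 rose and 2 fell, and of 8 germ cell markers 2 rose and 6 fell. Tbx2 rose from 0.761 to 29.5 CPM (5.32). The part of such cells in the remaining Tbx3 was not tested. Late gastruloids were above EpiLCs in mean CPM for Klf2, Klf4, Esrrb, Tbx3, Prdm14 and Nr5a2, and below them for Klf5, Tfcp2l1 and Zfp42, which was not tested.

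Whether a factor changed differently in the 2 species was tested as the difference between the log2 fold changes, human minus mouse, over 14006 genes matched by symbol. From naive to primed the fall was smaller in human for ESRRB (difference 5.76, SE 0.26, adjusted p = 1.96e-20), PRDM14 (5.62, SE 0.30, adjusted p = 5.57e-18), NR5A2 (4.64, SE 0.23, adjusted p = 2.68e-19) and TFCP2L1 (1.51, SE 0.15, adjusted p = 1.03e-10). It was larger in human for KLF5 (-3.82, SE 0.18, adjusted p = 1e-19), KLF2 (-2.28, SE 0.39, adjusted p = 2.32e-06) and TBX3 (-1.43, SE 0.63, adjusted p = 0.0365). The KLF17 difference was also called negative. It rests on 0 counts in primed H9, and mouse Klf17 did not fall but was at 0.159 CPM in naive ESCs and 1.15 CPM in EpiLCs. The TBX3 difference did not pass without naive H9 replicate 2 (-1.29), primed H9 replicate 1 (-1.34), primed H9 replicate 2 (-1.705) or EpiLC replicate 2 (-1.002). KLF4 (-0.21, SE 0.28, adjusted p = 0.536) and ZFP42 (0.90, SE 0.13) were not called. Over all matched genes 19% were called higher and 23.2% lower.

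**Figure D5:**
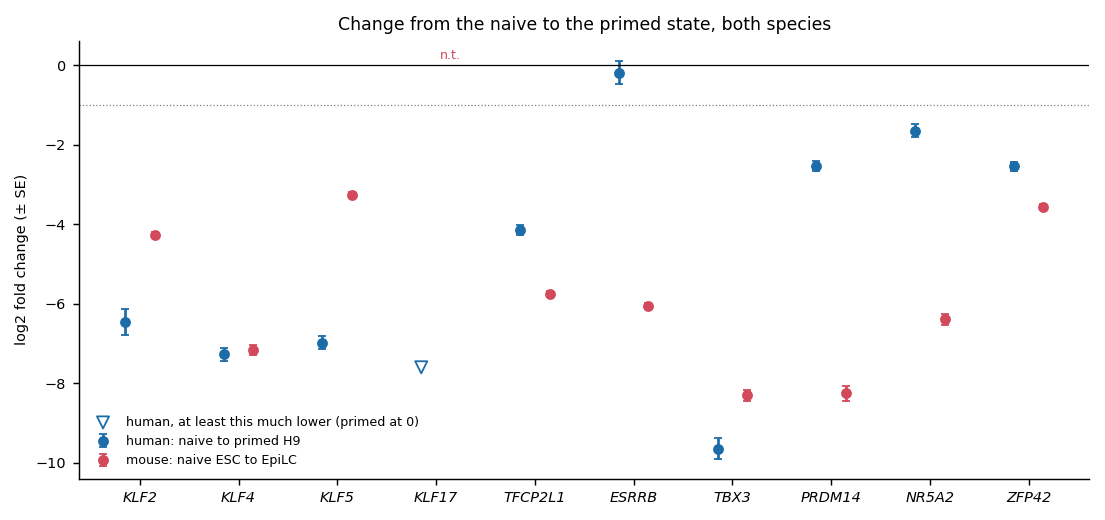
Log2 fold change of each gene from naive to primed H9 ESCs (blue) and from mouse naive ESCs to EpiLCs (red), with SE bars. The open triangle is the bound for KLF17, whose primed replicates were at 0, n.t. marks mouse Klf17 as not tested and the dotted line marks the fold asked for. ESRRB lies near 0 in human and at -6.05 in mouse, while KLF4 lies at -7.27 and -7.17.

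From early to late gastruloids the difference was positive for 7 genes and negative for PRDM14, with 16.7% of matched genes called higher and 18.7% lower. The largest were KLF2 (7.34, SE 0.78), NR5A2 (6.27, SE 0.25), TFCP2L1 (5.44, SE 1.02) and ESRRB (4.44, SE 0.70), followed by KLF5 (2.08), KLF4 (1.90) and TBX3 (1.501). KLF2 and NR5A2 rose in human and fell in mouse, while the human values of TFCP2L1 and ESRRB were near the floor at both times. Without late RA-gastruloid replicate 1 the calls of KLF5 (1.65), TFCP2L1 (4.60) and PRDM14 (-4.28) were lost. ZFP42 fell in both species and its difference of 0.90 was not called.

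Across the 10 human samples the most alike members were KLF4 and KLF5 (Pearson r of log2 CPM 0.98) and KLF5 and KLF17 (0.97), and the least alike were ESRRB and TBX3 (-0.37). Across the 8 mouse samples Klf5 and Zfp42 reached 0.999 and Klf2 and Esrrb 0.997. These values describe samples that share stages, 2 per group. Among genes with at least 10 CPM in their highest group, the 2 human patterns most like KLF17 were TPRX1 (0.9997) and S100P (0.998), and those most like PRDM14 were ANXA3 (0.998) and SYNGR3 (0.993). UPP1 (0.996) and NFKB2 (0.994) were nearest to KLF5, and RABIF (0.982) and ZFAND2A (0.981) to KLF2. JDP2 (0.994) and GFUS (0.993) were nearest to TFCP2L1, CDKN1B (0.997) and ITPRIPL2 (0.992) to TBX3, E2F2 (0.975) and UBTF (0.974) to NR5A2, and MICB (0.997) and IFITM1 (0.992) to ZFP42. In mouse Renbp (0.999) and Tdh (0.999) were nearest to Klf2, S100a13 (0.998) and Zfhx2 (0.998) to Klf4, Dock6 (0.999) and Ildr1 (0.999) to Klf5, and Tbc1d10b (0.999) and Irak1 (0.998) to Tfcp2l1. Osm (0.998) and Renbp (0.998) were nearest to Esrrb, Cyb5r3 (0.9996) and Ctnnd2 (0.9996) to Tbx3, Sec14l1 (0.997) and Arid5b (0.996) to Prdm14, Ulk1 (0.998) and Niban2 (0.997) to Nr5a2, and Atg13 (0.999) and Klf5 (0.999) to Zfp42. The sets of nearest genes are a description over stages and say nothing of shared control.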

How the data were processed

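RNA was isolated from 18 samples and sequenced as NEBNext Ultra II libraries. Per the labels and the study's methods, the authors used Trimmomatic 0.39 for trimming, STAR for alignment (human to GRCh38, mouse to GRCm39) and featureCounts for counting per gene, without strand and without multi-mapping reads, and the deposited values are raw counts, 1 table per species. The annotation release is not given in the sources used here. Genes were named by identifier through GENCODE (44876 of 44910 human and 29486 of 29720 mouse genes matched). The 10 genes and the gene lists were chosen with earlier results of these data known.

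All genes were tested with edgeR 4.0.16 (R 4.3.3) in 1 quasi-likelihood fit per species, with TMM scaling and filterByExpr (18300 human and 15003 mouse genes), and called at a Benjamini-Hochberg adjusted p under 0.05 with an absolute log2 fold change above 1. Species differences were tested as an interaction over 14006 matched genes. On simulated counts with 200 changed genes (log2 change 2) the fit recovered 200, 199 and 198 for the human, mouse and interaction comparisons. False calls were 3, 0 and 2. The changed genes were drawn only from genes well above the floor, every gene had the same spread, and all other genes were unchanged. The simulation therefore does not cover calls that rest on few counts, or the larger share of genes called in the data. TPM used the Length column of the files. Named from each list were the 3 largest changes among called genes with at least 1 CPM, and for each member called between naive and primed cells the 2 genes of highest Pearson r (log2 CPM, prior count 2), of which 1 result is not reported here. Replicate numbers do not pair samples. The p values rest on the spread between biological replicates that shared a batch, estimated jointly over all groups of a fit. The groups differed in this spread. Chi-square per degree of freedom between replicates ran from 1.55 (early RA-gastruloids) to 13.2 (late RA-gastruloids) in human, with 7.93 in naive H9 ESCs. In mouse it ran from 2.25 (early) to 3.82 (late gastruloids). SEs and p values that involve the more variable groups may therefore be too small. Intervals cover counting error only. Promoter windows came from RefSeq (GRCh38.p14) and, for mouse, GRCm39 with GENCODE gene starts. Library totals set the precision, with a floor of 3 counts per library. Alternatives were DESeq2 1.42.0, its size factors, upper quartile scaling, no filter, the compared groups alone, the replicate block, adjusted p alone and leaving out each replicate, and, added after seeing the data, a ratio of mean TPM.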

Additional observations from a re-analysis of the deposited data

Results flagged for a closer look

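The results that stood out were differences between the human and the mouse change, each tested as an interaction (human minus mouse, log2 scale). From naive to primed cells they were KLF2 (-2.28), KLF5 (-3.82), KLF17 (-14.61), TFCP2L1 (1.51), ESRRB (5.76), TBX3 (-1.43), PRDM14 (5.62) and NR5A2 (4.64). The fitted value of KLF17 depends on the prior count, since primed H9 ESCs had 0 counts, and is no bound. From early to late gastruloids they were KLF2 (7.34), KLF4 (1.90), KLF5 (2.08), TFCP2L1 (5.44), ESRRB (4.44), TBX3 (1.501), PRDM14 (-4.33) and NR5A2 (6.27). The value of PRDM14 rests on 0 counts in late RA-gastruloids. Species, line, medium and time cannot be told apart in either comparison.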

How the results depend on the processing

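The number of the 10 genes called stayed within 1.5 times of the reported count under every alternative run, except with adjusted p alone, which called 4 genes between the primed lines and 9 mouse genes from naive ESCs to early gastruloids. Leaving out each replicate gave 9 to 9 calls for naive to primed H9, 2 to 3 between the primed lines, 6 to 6 for RUES2-GLR to early, 4 to 6 for early to late RA-gastruloids, 9 to 10 for mouse naive to EpiLC, 5 to 6 for naive to early, 9 to 10 for EpiLC to early and 8 to 9 for early to late. The species differences ranged from 7 to 8 and from 6 to 8. A group left with 1 sample is assumed to vary like the others.

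Replicate numbers did not pair the samples, since correlations of deviations ran from -0.11 to 0.07. With the replicate block the counts were 9, 3, 6, 5, 9, 5, 9, 8, 8 and 8 in the order above, the species differences last, and KLF4 between the primed lines (1.06) gained a call.

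Signs turned for changes that had not been called. Between the primed lines PRDM14 was 0.00831 with DESeq2 size factors, 0.0462 with upper quartile scaling, 0.0318 with the compared groups alone and -0.20 to 0.12 with a replicate left out. KLF5 there was 0.14, 0.18, 0.0736 (replicate block), 0.13 (DESeq2) and 0.19 (compared groups), and -0.25 to 0.59 with a replicate left out, and KLF2 was -4.7103 to 1.13. From the primed RUES2-GLR cells to the early stage KLF5 was -0.0285 (upper quartile), -0.00642 (compared groups) and -0.278 to 0.20, NR5A2 was -0.66 to 0.22, and KLF2 was -5.43 to 2.91 with a replicate left out. From early to late ESRRB was -0.65 to 5.83, and the KLF4 species difference was -0.64 to 0.45. ESRRB passed at 5.83 without early replicate 1, whose partner had 0 counts. The cause was not tested. RUES2-GLR replicate 2, the smallest library, limits low genes in its comparisons.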
